A study of Mus musculus with 7 samples.

Results

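In satellite cells taken from mice post mortem, 50 genes stood higher on day 2 than in living old mice and lower again on day 4. They were chosen from the measured values: the mean log2 level at 2 days post mortem (D2PM) had to lie at least 0.7 above the mean of the old cells, and the mean at 4 days post mortem (D4PM) at least 0.4 below that of D2PM. Of 9944 genes tested, 56 met both steps. Left out by name were the myogenic factor Myog, the cardiac actin Actc1 and 4 genes whose symbols start with Nduf or Mrp. These 4 were Ndufb3, Ndufaf5, Mrps6 and Mrpl18. This leaves 50 of 9944. Because both steps and the groups they compare chose the genes, every value of a member below describes the pattern and no test is offered for it.

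Satellite cells serve skeletal muscle as its stem cells. They lie quiescent against the muscle fibre, express the transcription factor Pax7, and supply new fibre nuclei when muscle is damaged. On differentiation they switch on the sarcomeric proteins, of which the myosin light chains are early examples. In muscle they have as neighbours the matrix-producing fibroadipogenic cells, the tenocytes of the tendon ends, endothelial cells and the fibres themselves.

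Cells of Tg:Pax7-nGFP mice, in which a transgene carrying Pax7 regulatory sequence drives nuclear GFP, were isolated by FACS on GFP and their RNA was amplified and hybridised to Mouse Gene 1.0 ST arrays. The old group held 2 arrays of living mice aged 24 to 26 months by the labels and methods, D2PM held 2 arrays and D4PM 3 arrays, and mice used post mortem were aged 8 to 12 weeks by the legend that describes these arrays. The title of the series speaks instead of young adults for the living mice and its design text gives that age in weeks. All mice carried the same transgene. The paper compared post-mortem cells with young quiescent cells, and the sources do not settle the age of the living mice. By the labels, no arrays of young living mice were analysed here. On that reading, age and time after death cannot be told apart in any comparison with old. Only D4PM against D2PM is free of that age difference. The sources do not say that each array came from a separate mouse, so the spread between arrays may be technical.

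Markers of the labelled cell type were present. All 12 satellite cell markers listed passed the filter on low signal, and Pax7 was at 9.87 to 10.52. Their mean log2 level lay between 10.02 and 10.20 on each of the 7 arrays. That mean covers moves both ways, with 2 of 12 called higher and 3 lower at D4PM than in old. Array medians lay between 6.11 and 6.19. Of the T and B lymphocyte markers 0 passed the filter, whereas markers of fibroadipogenic cells, tenocytes, endothelium and myofibres were measured and are given beside the members that belong with them. Markers of macrophages and monocytes, Schwann cells, smooth muscle with pericytes and erythroid cells also passed it, 4, 4, 5 and 2 of them. The fibroadipogenic marker Dpt, at 11.60 to 12.14, lay above Pax7 on each array, whereas Pi16 of that list did not pass. The arrays measured RNA of sorted pools, so fewer cells of a type and less RNA per cell cannot be told apart.

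Over all members, the difference between D2PM and old ran from 0.70 to 2.59 on the log2 scale with a median of 0.92, from 1.63-fold to 6.0-fold on the linear scale. The difference between D4PM and D2PM ran from -1.18 to -0.41 with a median of -0.50. For comparison, the median over all genes tested was 0.00 for the first step and -0.03 for the second. Averaged over the members, the log2 level was 6.94 and 6.56 in old, 7.90 and 7.71 at D2PM, and 7.14, 7.47 and 7.03 at D4PM. The D2PM arrays thus lay above the others, and D4PM lay between D2PM and old on each array.

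The return on day 4 was partial for most members. The rule asked for a smaller second step than first, which favours a partial return, so nothing is read from it. On average 48 of 50 were still above old on day 4, where 49.9% of all genes were. The median difference between D4PM and old was 0.40 over the members. The share of the day 2 difference that was lost by day 4 ran from 23.5% to 111% with a median of 56.9%, and was at least 50% in 34 members and less in 16. Only lumican (Lum) and the mitochondrial import subunit Timm21 were at or below the old mean on day 4. In contrast, 7 members still lay at least 0.7 above old on day 4, against 5.44% of all genes. They were Mgp, Rnu12, Mylpf, Myl2, Thbs1, Exoc6 and Tnmd.

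**Figure D1:**
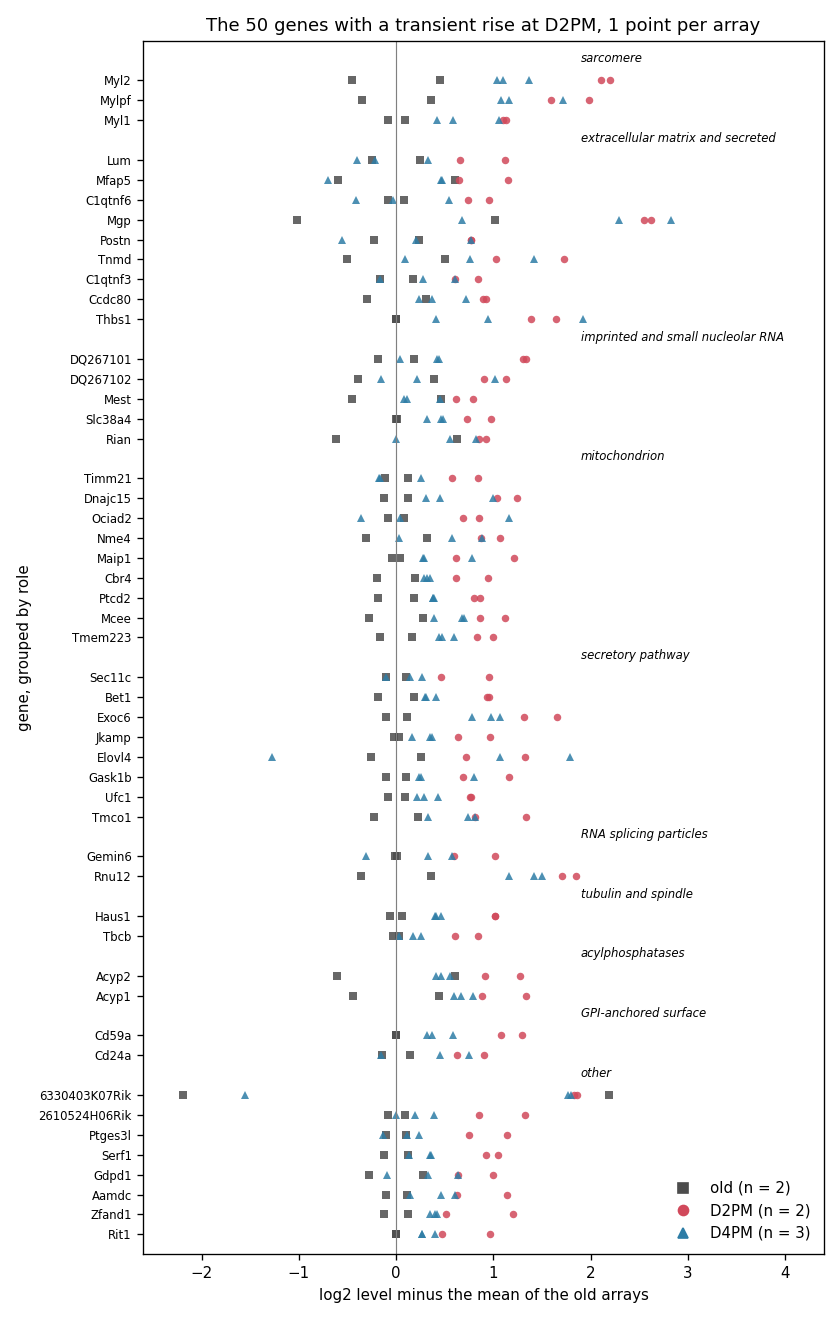
Level of each of the 50 members on each of 7 arrays, as log2 level minus the mean of the 2 old arrays, with genes grouped by role and squares, circles and triangles for old, D2PM and D4PM. Both D2PM circles sit above all other arrays in 36 of the 50 genes, and 6330403K07Rik stands out because 1 old and 1 D4PM array lie far below its other arrays.

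The plain background for these numbers is as follows, with nothing read from it, since the rule used the same contrasts. A D2PM mean at least 0.7 above old was reached by 545 of 9944 genes (5.48%) and a D4PM mean at least 0.4 below D2PM by 304 (3.06%). With limma and a Benjamini-Hochberg adjusted p under 0.05, 42 of 50 members were called higher at D2PM than in old, where 10.3% of all genes were. For lower at D4PM than at D2PM the counts were 1 of 50 members (the small nucleolar RNA DQ267101) and 3 of 9944 genes, or 0.0302%. Higher at D4PM than in old were 15 of 50 members against 12.4% of all genes, and lower 0 of 50 against 15.5%. At an unadjusted p under 0.05 limma gave 46, 34 and 22 of 50 members in the 3 comparisons, in either direction. Over all 9944 genes it gave 3270, 772 and 3953. Both D2PM arrays lay above all other arrays in 36 of 50 members against 6.64% of all genes. All D4PM arrays lay above both old arrays in 25 of 50, where the share of all genes was 26.6%.

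**Figure D2:**
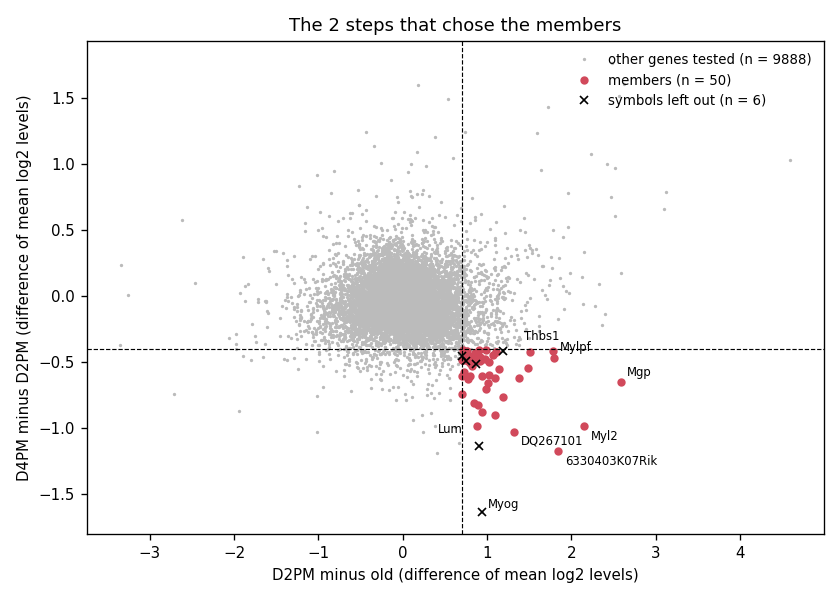
Each of the 9944 genes tested by its difference of mean log2 level between D2PM and old (x axis) and between D4PM and D2PM (y axis), with dashed lines at the thresholds of 0.7 and -0.4, members as filled circles and the 6 symbols left out as crosses. Most members crowd near the corner of the 2 thresholds, whereas Mgp, Myl2, DQ267101 and 6330403K07Rik lie away from it.

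The cloud of genes has no gap at either threshold. Just inside the first were the imprinted gene Mest (0.70), Timm21 (0.71) and the signal peptidase subunit Sec11c (0.71), and just outside it the glycosylation enzyme Alg5 (0.69), the proton pump assembly factor Vma21 (0.68) and the MHC class II chain H2-Aa (0.67). H2-Aa also had a large second step, -1.11 between D4PM and D2PM. Just inside the second threshold were Tmem223, Mcee and Rit1 (each -0.41), and just outside it were troponin C (Tnnc1, -0.40), the micropeptide myoregulin (Mrln, -0.40) and the proton pump subunit Atp6v1e1 (-0.39). Of these genes outside, Tnnc1 and Mrln belong to muscle contraction and calcium handling, as do several members.

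Sarcomeric members were 3 myosin light chains, which bind the lever arm of the myosin head. Their promoters are shown because members of this group share a function and a letter pattern. The sequences come from RefSeq with GRCm38.p6 coordinates, run 5′ to 3′ on the gene's strand from 250 bases before to 50 bases after an annotated start, and carry each E-box (CANNTG, which reads the same on both strands and is the letter pattern bound by myogenic and other helix-loop-helix factors) in capitals. Myl2 has 2 annotated starts, of which both are given.
Myl2, first start, chr5:122092474-122092773, plus strand: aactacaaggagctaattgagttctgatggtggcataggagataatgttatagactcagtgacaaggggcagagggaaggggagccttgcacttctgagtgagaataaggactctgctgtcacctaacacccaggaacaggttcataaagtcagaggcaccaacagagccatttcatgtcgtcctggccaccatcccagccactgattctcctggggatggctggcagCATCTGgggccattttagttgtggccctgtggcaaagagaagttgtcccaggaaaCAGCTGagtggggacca
Myl2, second start, chr5:122092939-122093238, plus strand: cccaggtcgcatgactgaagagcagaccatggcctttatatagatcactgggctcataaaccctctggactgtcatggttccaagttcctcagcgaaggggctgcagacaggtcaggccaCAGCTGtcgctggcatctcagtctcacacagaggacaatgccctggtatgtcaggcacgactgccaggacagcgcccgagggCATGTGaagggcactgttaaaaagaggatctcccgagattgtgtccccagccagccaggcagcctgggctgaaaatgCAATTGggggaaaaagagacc
Mylpf, chr7:127211358-127211657, plus strand: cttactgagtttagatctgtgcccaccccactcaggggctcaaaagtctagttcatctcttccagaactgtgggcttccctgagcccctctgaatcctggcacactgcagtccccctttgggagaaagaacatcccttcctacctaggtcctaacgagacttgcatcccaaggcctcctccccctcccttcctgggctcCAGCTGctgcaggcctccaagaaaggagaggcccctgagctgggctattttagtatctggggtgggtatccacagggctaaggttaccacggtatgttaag
Myl1, chr1:66945007-66945306, minus strand: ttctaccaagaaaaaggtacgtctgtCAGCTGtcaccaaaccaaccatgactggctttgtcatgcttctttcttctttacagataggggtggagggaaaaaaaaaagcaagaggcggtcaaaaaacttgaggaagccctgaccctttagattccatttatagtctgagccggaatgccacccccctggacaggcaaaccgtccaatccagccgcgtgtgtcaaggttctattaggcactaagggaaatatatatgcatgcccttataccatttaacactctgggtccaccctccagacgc
All 4 of these promoters hold the palindromic form CAGCTG, a form picked out after the sequences were seen. It lies 33 bases after the first Myl2 start, and 130, 51 and 224 bases before the second Myl2 start, the Mylpf start and the Myl1 start. Over the promoters found for members, 9 of 42 held it (21.4%), against 15.9% of promoters of all genes tested and 16.3% of all promoters in the table. The 9 include the 4 promoters from which the form was picked, which raises the share, so nothing is read from it. Any E-box was in 31 of 42 (73.8%), against 63.6% and 72.3%. A match describes the letters only.

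Myl2, the regulatory light chain of slow and cardiac muscle, was at 6.05 and 5.15 on the old arrays, 7.80 and 7.71 at D2PM and 6.64, 6.97 and 6.70 at D4PM. The groups did not overlap. D2PM was above old by 2.15 (SE 0.24), a 4.45-fold difference, and D4PM was below D2PM by 0.99, 1.98-fold. Mylpf, the regulatory light chain of fast fibres, stood at 7.60 and 6.89 in old, 9.23 and 8.84 at D2PM and 8.41, 8.96 and 8.33 at D4PM. Here D4PM replicate 2 fell within the D2PM range, and D4PM kept 1.32 of the 1.79 gained over old. Myl1, the essential light chain of fast fibres, had 5.55 and 5.37 in old, 6.56 and 6.58 at D2PM and 6.04, 6.51 and 5.88 at D4PM. Both post-mortem groups lay above old for all 3 genes.

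The wider set of myofibre markers had little of the second step. Of 10 such markers, of which Mylpf is one, 9 were called higher at D2PM than in old and 9 higher at D4PM than in old, and 0 were called different between D4PM and D2PM. Their median difference was 1.19 at D2PM against old and 0.01 at D4PM against D2PM. Without Mylpf, 8 of 9 were called higher in each comparison with old, with medians of 1.18 for the first step and 0.04 for the second. The light chains had 1.79 and -0.47, but the rule chose them for both steps, so that contrast was set in advance. The mean over the markers was 7.74 and 7.34 in old, 8.75 and 8.55 at D2PM and 8.51, 8.85 and 8.52 at D4PM. The part of fibre RNA in the light chain values was not tested. Myog and Actc1, which met both steps and were left out by name, had a larger second step, -1.63 and -1.13, and ended below old on average.

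Genes of the extracellular matrix and secreted proteins formed a group of 9. Their D2PM difference over old ran from 0.72 to 2.59 with a median of 0.90, and their D4PM difference from D2PM ran from -0.98 to -0.42 with a median of -0.63. Lumican, a proteoglycan that binds collagen fibrils, was at 5.31 and 4.81 in old, 6.18 and 5.72 at D2PM and 5.39, 4.84 and 4.66 at D4PM. Of the D4PM arrays 1 was thus below both old arrays and another just above them, and the loss of the day 2 difference was 111%. Its level was close to the filter of 5.12, where RMA compresses differences. The means of lumican in old and at D4PM, 5.06 and 4.96, lay below that filter.

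Mfap5, a component of elastic microfibrils, was at 6.98 and 5.77 in old, 7.52 and 7.02 at D2PM and 6.84, 6.84 and 5.67 at D4PM. The lowest D2PM array was only just above the higher old array. D2PM minus old was 0.90, but 1.5 without old replicate 1 and 0.30 without old replicate 2, and D4PM minus D2PM went from -0.82 to -0.43 without D4PM replicate 3. C1qtnf6, a secreted protein of the C1q and TNF family, had 6.44 and 6.61 in old, 7.47 and 7.26 at D2PM and 6.49, 7.06 and 6.11 at D4PM, with no overlap of D2PM with the others. Its relative C1qtnf3 had the smallest first step of the group, 0.72, and a second of -0.49.

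Matrix Gla protein (Mgp), which holds back calcification of soft tissue, had the largest first step of all members. Its levels were 7.53 and 5.49 in old, 9.13 and 9.06 at D2PM and 8.81, 9.34 and 7.19 at D4PM. The 6.0-fold difference between D2PM and old carried an SE of 0.65 on the log2 scale, because the old arrays differed by over 2 units, and the lower D4PM mean rested on replicate 3, the other arrays being near or above D2PM. Thrombospondin 1 (Thbs1), a secreted regulator of adhesion and of TGF-beta activation, had 9.06 and 9.07 in old, 10.45 and 10.71 at D2PM and 10.01, 10.99 and 9.48 at D4PM. In Thbs1, D4PM replicate 2 was above both D2PM arrays. Periostin (Postn), tenomodulin (Tnmd) and Ccdc80 completed the group with first steps of 0.77, 1.38 and 0.91 and second steps of -0.63, -0.62 and -0.47.

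Markers of other cell types were set beside these genes. The mean of 7 fibroadipogenic markers, Lum among them, was 8.37 and 7.89 in old, 8.55 and 8.48 at D2PM and 8.37, 8.20 and 8.05 at D4PM. The 1 of 7 called higher at D2PM than in old was Lum itself. The first step lay above 0 in 5 of 7 (median 0.26) and the second in 0 of 7 (median -0.22). Without Lum the medians were 0.23 and -0.22. Dcn, not called, had means of 8.95 in old, 10.20 at D2PM and 9.93 at D4PM, with its old arrays at 9.97 and 7.94. The mean of 5 tenocyte markers, Tnmd among them, was 6.28 and 5.73 in old, 6.94 and 6.80 at D2PM and 6.80, 7.13 and 6.33 at D4PM, with 2 of 5 called higher at D2PM, Tnmd and 1 of the 4 that are not members. In both lists and in the matrix members, old replicate 2 was below old replicate 1 and D4PM replicate 3 was the lowest of its group. This order was not particular to them. The mean over all members had it, as did the means of the sarcomeric, mitochondrial and secretory members. Some other roles, such as the imprinted members, did not. Endothelial markers had that array order too, at 6.58 and 5.90 in old, 6.97 and 6.97 at D2PM and 7.57, 7.33 and 6.95 at D4PM. Their first step lay above 0 in 12 of 12, with a median of 0.66 and 5 of 12 called higher. The second step went otherwise, with a median of 0.31 for D4PM against D2PM. Of the 12, 10 were called higher at D4PM than in old. The part of these cell types in the matrix values was not tested.

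A longer list of matrix genes had smaller differences. Of 23 genes tested from 26 listed, which include Lum and Postn, 2 were called higher and 1 lower at D2PM than in old, and without Lum and Postn 1 of 21 was called in each direction. The median over that list was -0.01 for D2PM against old and -0.22 for D4PM against D2PM, with 3 of 23 genes above 0 in the second comparison.

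**Figure D3:**
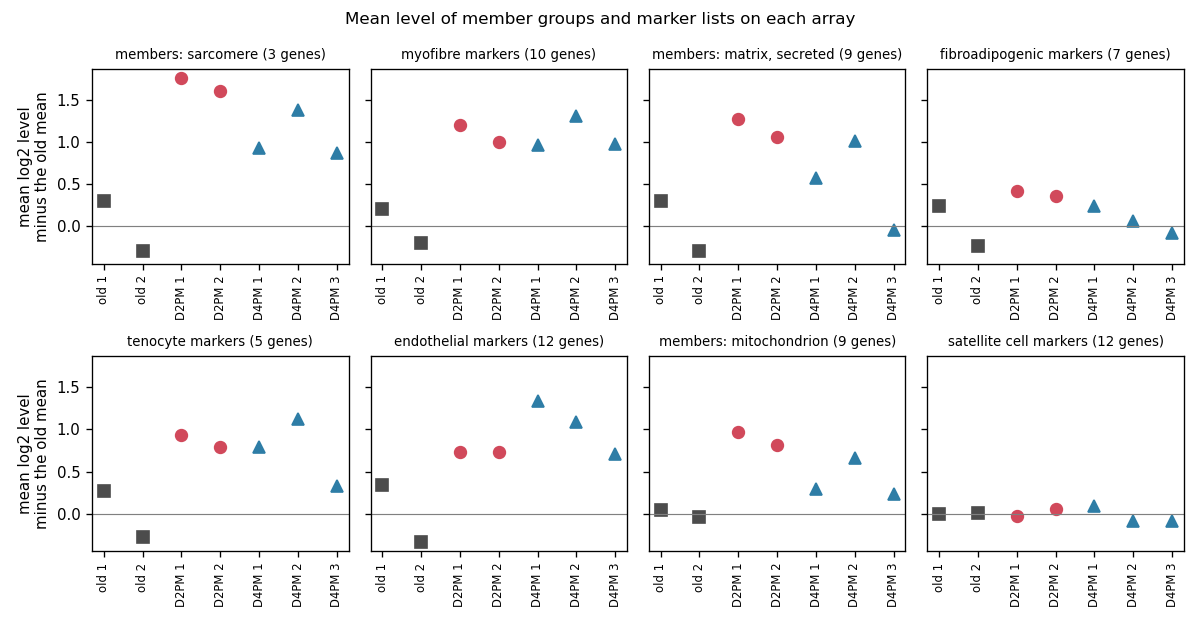
Mean log2 level of 3 groups of members and 5 marker lists on each of the 7 arrays, as the difference from the mean of the 2 old arrays, with the number of genes over each panel. The light chains, chosen for a drop between D2PM and D4PM, fall there while the myofibre markers stay level. D4PM replicate 3 is the lowest D4PM array for the sarcomeric, matrix and mitochondrial members and for the fibroadipogenic, tenocyte and endothelial markers. The mean of the satellite cell markers stays near 0.

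Imprinted genes and small nucleolar RNAs gave 5 members, of which 3 lie in one place. DQ267101 and DQ267102, C/D-type small nucleolar RNAs of 72 and 71 bases, lie 4.85 kb apart within the span of Rian, a long non-coding RNA of the imprinted Dlk1-Dio3 cluster that is transcribed from the maternal chromosome and hosts such RNAs in its introns. On GRCm38.p6, DQ267101 lies at chr12:109651424-109651495, DQ267102 at chr12:109656345-109656415 and Rian at chr12:109603945-109661716. The array signal does not separate a small nucleolar RNA from its unspliced host, so the 3 genes are not independent of each other.

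DQ267101 was the second member by the smaller of its steps and the clearest by separation. It stood at 5.89 and 5.53 in old, 7.02 and 7.05 at D2PM and 5.75, 6.13 and 6.15 at D4PM, a 2.50-fold difference followed by a 2.04-fold one the other way. DQ267102 had 8.25 and 7.46 in old, 8.98 and 8.76 at D2PM and 7.70, 8.07 and 8.87 at D4PM, so that D4PM replicate 3 remained inside the D2PM range. Its first step of 1.02 was 0.62 without old replicate 2, and its second of -0.66 was -0.40 without D4PM replicate 1. Rian had 7.32 and 6.07 in old, 7.62 and 7.55 at D2PM and 6.70, 7.25 and 7.51 at D4PM, and its lower D4PM mean came mainly from replicate 1.

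No other gene of the cluster met both steps. The cluster was measured by 44 probe sets with 1 gene each, of which 38 were miRNA genes, and 0 of the 38 met both steps. Their D2PM difference from old ran from -1.02 (Mir377) to 0.56 with a median of -0.04, and 16 of 38 lay above 0. Their D4PM difference from D2PM had a median of -0.28, and 28 of 38 were below old on day 4. Of these miRNA genes 15 lay below the filter that members had to pass. Over the 23 past it, the D2PM difference ran from -1.02 to 0.37 with a median of -0.07, 8 of 23 lay above 0, and 16 of 23 were below old on day 4. Meg3, the long non-coding RNA at the start of the maternal transcription unit, had a mean of 11.34 in old, 10.46 at D2PM and 10.18 at D4PM, going down at both steps. The paternally expressed genes Dlk1 and Rtl1 differed between D2PM and old by 0.01 each.

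**Figure D4:**
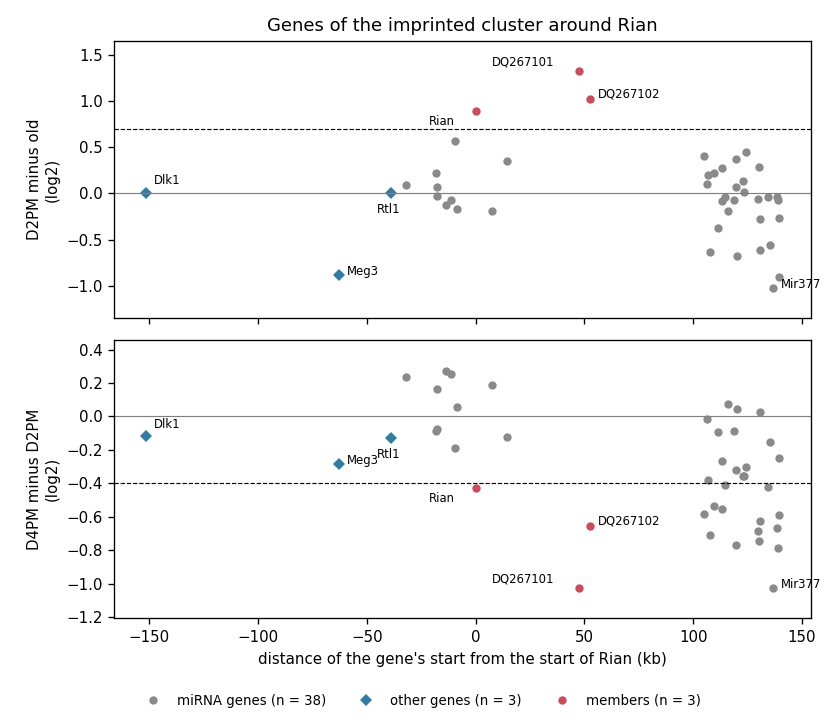
Difference of mean log2 level between D2PM and old (top) and between D4PM and D2PM (bottom) for the 44 genes of the cluster, against the distance of each gene's start from the start of Rian in kb, with dashed lines at 0.7 and -0.4. Rian, DQ267101 and DQ267102 are past both lines, the miRNA genes stay below the top line, and Meg3 lies at -0.88 in the top panel.

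The remaining members of the group were protein-coding and lie elsewhere. Mest, an imprinted gene expressed from the paternal copy, stood at 8.75 and 9.67 in old, 10.01 and 9.83 at D2PM and 9.29, 9.67 and 9.33 at D4PM. Its first step of 0.70 was the smallest of all members and depended on the lower old array. Slc38a4, an imprinted amino acid transporter, had 6.17 and 6.16 in old, 7.14 and 6.89 at D2PM and 6.64, 6.48 and 6.63 at D4PM. Among 39 imprinted genes listed after the values had been seen, 25 were tested and 3 were members (Mest, Rian and Slc38a4). At D2PM, 1 of the 25 was called higher than in old and 2 lower, with a median difference of 0.04. The 1 called higher was the member Slc38a4, and of the 22 that are not members 0 were called higher and 2 lower.

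Mitochondrial proteins gave 9 members once the respiratory chain and mitochondrial ribosome symbols had been left out by the rule. Their first step ran from 0.71 to 1.14 with a median of 0.91 and their second from -0.74 to -0.41 with a median of -0.46. Timm21, which links the outer and inner membrane translocases during protein import, was at 7.20 and 7.44 in old, 8.16 and 7.90 at D2PM and 7.15, 7.57 and 7.14 at D4PM. It returned fully, with 105% of the day 2 difference lost. Dnajc15, a J protein of the import motor, had 7.50 and 7.25 in old, 8.62 and 8.41 at D2PM and 7.83, 8.37 and 7.68 at D4PM.

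The others act in several mitochondrial processes. Ptcd2 processes mitochondrial RNA, and its D4PM arrays were within 0.01 of each other at 6.53, 6.54 and 6.53, against 6.96 and 7.01 at D2PM. Maip1 (maturation of a calcium uniporter subunit), Tmem223 (assembly of the respiratory chain), Mcee (methylmalonyl-CoA epimerase), Nme4 (a nucleoside diphosphate kinase), Cbr4 (fatty acid synthesis) and Ociad2 (a membrane protein) had first steps between 0.77 and 0.99. In Ociad2, D4PM replicate 2 at 8.59 was above both D2PM arrays, at 8.12 and 8.29. Among 25 tested genes of mitochondrial import and proteostasis, a list with 0 members, 5 were called higher and 3 lower at D2PM than in old, and 0 were called different between D4PM and D2PM. All but 1 of the 25 had a D4PM mean below D2PM, with a median of -0.21, and so did all 14 tested genes of the TCA cycle, with a median of -0.20, and 56.6% of all genes tested.

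The secretory pathway, from entry into the endoplasmic reticulum to the plasma membrane, gave 8 members. Their first step ran from 0.71 to 1.49 and their second from -0.60 to -0.45. Sec11c, a catalytic subunit of the signal peptidase, was at 7.43 and 7.22 in old, 8.27 and 7.79 at D2PM and 7.46, 7.59 and 7.22 at D4PM. Bet1, a SNARE for transport from the endoplasmic reticulum to the Golgi, had 6.37 and 6.0 in old, 7.12 and 7.14 at D2PM and 6.60, 6.49 and 6.49 at D4PM. Exoc6, a subunit of the exocyst that tethers vesicles at the plasma membrane, had 6.35 and 6.57 in old, 7.78 and 8.12 at D2PM and 7.53, 7.44 and 7.24 at D4PM, the largest first step of the group. In these 3 genes D2PM lay above every other array.

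Elovl4, which elongates very long chain fatty acids, had the widest D4PM spread of the group. It had 6.61 and 6.10 in old, 7.68 and 7.07 at D2PM and 7.42, 8.14 and 5.08 at D4PM, and without D4PM replicate 3, or without D2PM replicate 1, it no longer met the rule. Tmco1 (a calcium channel of the endoplasmic reticulum), Jkamp (a membrane protein of degradation at the endoplasmic reticulum), Ufc1 (the conjugating enzyme for UFM1) and the Golgi protein Gask1b had first steps of 1.08, 0.80, 0.76 and 0.92.

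Smaller groups held a pair of genes each. Of RNA splicing particles, Gemin6, a subunit of the SMN complex that assembles small nuclear ribonucleoproteins, was at 5.96 and 5.98 in old, 6.98 and 6.56 at D2PM and 6.29, 6.54 and 5.66 at D4PM. A second probe set for Gemin6, which the rule did not use, had steps of 0.63 and -0.34, short of both thresholds. Rnu12, the U12 small nuclear RNA of the minor spliceosome, had 6.28 and 5.55 in old, 7.77 and 7.62 at D2PM and 7.08, 7.34 and 7.42 at D4PM, and lost only 23.5% of its day 2 difference, the least of all members. Of 20 tested genes of splicing and RNA processing, 9 were called higher at D2PM than in old, 1 lower and 0 between D4PM and D2PM.

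Haus1, a subunit of the augmin complex that branches spindle microtubules, was at 5.80 and 5.93 in old, 6.88 and 6.89 at D2PM and 6.33, 6.27 and 6.28 at D4PM. Tbcb, a chaperone of alpha-tubulin, had 8.17 and 8.23 in old, 9.04 and 8.81 at D2PM and 8.37, 8.46 and 8.23 at D4PM. For both, arrays of a group lay close together and D2PM was above every other array. Old and D4PM were apart for Haus1 and overlapped for Tbcb. The first step of Haus1, 1.02, had the smallest SE of all members, 0.13.

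The acylphosphatases Acyp1 and Acyp2 are a small family of enzymes that cleave acyl phosphates, and Acyp2 is the form abundant in muscle. Acyp1 had 8.70 and 7.82 in old, 9.59 and 9.15 at D2PM and 8.93, 9.05 and 8.85 at D4PM. Acyp2 had 9.12 and 7.90 in old, 9.79 and 9.43 at D2PM and 8.96, 9.07 and 8.92 at D4PM. For both genes the old arrays were farther apart than the D4PM arrays, and D4PM of Acyp2 lay below old replicate 1.

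Cd59a and Cd24a are surface proteins held by a GPI anchor, the first an inhibitor of the membrane attack complex of complement. Cd59a stood at 6.29 and 6.29 in old, 7.37 and 7.59 at D2PM and 6.61, 6.66 and 6.88 at D4PM. Cd24a had 8.67 and 8.39 in old, 9.43 and 9.15 at D2PM and 9.27, 8.98 and 8.37 at D4PM. The groups were separate for Cd59a, with a first step of 1.19 (SE 0.15), whereas for Cd24a a D4PM array lay within the D2PM range and another just below the lower old array.

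The last 8 members shared no role. By the smaller of its steps the leading member of all was 6330403K07Rik, at 9.87 and 5.49 in old, 9.54 and 9.51 at D2PM and 6.12, 9.47 and 9.45 at D4PM. Its arrays thus fell into a high and a low set that cut across the groups, and without old replicate 2 D2PM minus old was -0.34. Without D4PM replicate 1, D4PM minus D2PM was -0.06 in place of -1.18. 2610524H06Rik, at 5.62 and 5.44 in old, 6.39 and 6.86 at D2PM and 5.73, 5.93 and 5.53 at D4PM, had D2PM apart from the other arrays, while D4PM overlapped old. Ptges3l, a relative of the Hsp90 partner p23, stood at 4.93 and 4.72 in old, 5.97 and 5.57 at D2PM and 4.93, 4.69 and 5.06 at D4PM. Its mean of 5.13 over all arrays was just above the filter. The means in old and at D4PM, 4.826 and 4.895, lay below the filter, so Ptges3l passed it only through D2PM.

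Serf1, a small protein that modifies amyloid aggregation, had 6.21 and 6.46 in old, 7.38 and 7.26 at D2PM and 6.69, 6.69 and 6.47 at D4PM. D2PM lay above the rest, and the lowest D4PM array was level with the higher old array. Gdpd1 (a lysophospholipase), Aamdc, Zfand1 (a zinc finger protein of stress granules) and Rit1 (a Ras-like GTPase) had first steps of 0.82, 0.88, 0.86 and 0.72 and second steps of -0.53, -0.48, -0.47 and -0.41. A second probe set of Zfand1 gave 0.87 and -0.54.

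Members shared few features that the rule had not used. By RefSeq biotype 46 of 50 were protein-coding, 2 small nucleolar RNAs, 1 a long non-coding RNA and 1 a small nuclear RNA, where all genes tested held 95.7% protein-coding, 0.514% small nucleolar, 2.06% long non-coding and 0.0403% small nuclear RNA genes. Their median span was 15737 bases against 21101. Beyond the 3 genes of the Rian cluster, the only members of one chromosome within 1 Mb of each other were Ptcd2 and Serf1, 763 kb apart. The spans of 20 members overlapped another gene of the RefSeq table, for example Tbcb with Polr2i and Mest with Copg2, and the table gives no strand.

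Promoters were found for 35 of the 50 members, 42 sequences in all. Their median CpG count was 12.5 and their median GC content 55.2%, below the 20 and 61.0% for promoters of the genes tested but above the 7.0 and 52.7% of all promoters in the table. The GC box GGGCGG (either strand) was in 45.2%, against 62.6% for genes tested and 35.7% for all promoters. The core of the hypoxia element ACGTG (either strand) was in 7.14%, against 25.5% and 19.6%. TATAAA (either strand) was in 14.3%, against 7.47% and 13.6%. Among roles with 4 or more promoters, the sarcomeric, matrix and imprinted members had median CpG counts of 4.5, 5.0 and 5.0, and the mitochondrial and secretory members 16.0 and 21.0. Several promoters of one gene overlap, and with 42 sequences these shares describe the set only.

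Few members were in the lists prepared for these cells. Of 39 lists of pathways, cell states and cell type markers, 4 held a member and 35 held none, and only Lum, Postn, Tnmd and Mylpf were in any of them. In the list of myogenic differentiation and fusion, with 28 genes tested and 0 members, 7 were called higher and 2 lower at D2PM than in old, and 2 lower at D4PM than at D2PM. Those last 2 were Myog and Actc1, which met both steps and were left out by name. Without them 5 of 26 were called higher and 2 lower at D2PM, and 0 lower at D4PM than at D2PM.

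Within a group, the order of the arrays was compared over members and over all genes tested. D2PM replicate 1 was above replicate 2 in 36 of 50 members, against 49.2% of all genes. Among D4PM arrays, replicate 2 was the highest in 32 of 50 (31.1% of all genes) and replicate 3 the lowest in 30 of 50 (33.3%). Old replicate 1 was above replicate 2 in 34 of 50 (45.5%). The rule favours genes that a single high D2PM array, or a single low old or D4PM array, carried past a threshold. These orders are thus not independent of the rule, and nothing is read from them.

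Which genes met the rule depended on single arrays. Without D2PM replicate 1, 53 genes met both steps but only 24 of the 50 members were among them, and without D2PM replicate 2, 180 genes met them, 45 members included. Leaving out D4PM replicate 3 kept 31 members, old replicate 2 kept 35, D4PM replicate 1 kept 37, old replicate 1 kept 44 and D4PM replicate 2 kept 48. In these settings the filter on mean signal was kept from all 7 arrays and not applied again. The 10 members that met both steps whichever array was left out were Myl2, DQ267101, 2610524H06Rik, Ptges3l, C1qtnf6, Cd59a, Serf1, Bet1, Haus1 and Dnajc15. Of the others 7 were lost in 1 of these 7 settings, 21 in 2, 11 in 3 and 1, Ociad2, in 4. Among the 10, Ptges3l passed that filter only through its D2PM arrays.

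**Figure D5:**
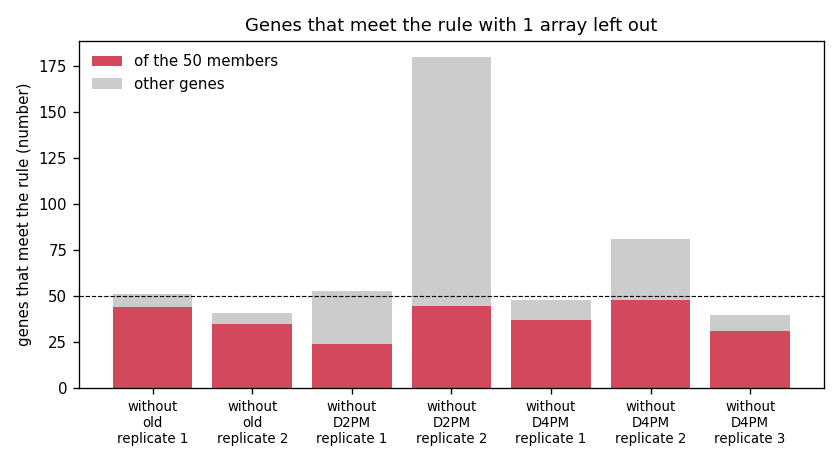
Number of genes that meet the rule when 1 of the 7 arrays is left out, split into the 50 members (dark) and other genes (light), with a dashed line at 50. The filter on mean signal is kept from all 7 arrays. Without D2PM replicate 1 only 24 of the members remain, and without D2PM replicate 2 the total reaches 180.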

How the data were processed

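The authors deposited log2 values of 18675 probe sets on 7 Mouse Gene 1.0 ST arrays, made with RMA, which subtracts background, brings arrays to a common distribution and combines the probes of a set. Their processing notes also name limma. Probe sets that did not vary had been removed by them, and RMA compresses changes near the floor. Microarray signals carry no depth; the number of arrays limits precision.

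Of the probe sets, 14480 had 1 gene in the array annotation, 774 several and 3421 none. The brightest probe set stood for each of 13287 genes, and the 9944 with a mean of at least 5.12 (the 25th percentile) were fitted in R 4.3.3 by limma 3.58.1 with a mean for each of 3 groups and eBayes (4 residual degrees of freedom), and p was adjusted by Benjamini-Hochberg with a threshold of 0.05. The fit was tested on simulated data. Standard errors are those of limma.

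The members, lists and comparisons were chosen with earlier results of these data known, and roles were assigned after the members were known. The naming rule took the 12 members with the largest smaller step, 2 per role, the genes nearest each threshold, Myog and Actc1, which gave 35 genes. All other members, Meg3, Dlk1, Rtl1 and Mir377 were named after their values were seen. Names and promoters come from RefSeq GRCm38.p6, in which 14425 probe sets matched. Alternatives were other normalisations, filters, thresholds, variance priors, the replicate block, an ordinary t-test of 2 groups with pooled variance and leaving out each array.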

Additional observations from a re-analysis of the deposited data

How the results depend on the processing

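Thresholds smaller by 25% gave 156 genes that met the rule and thresholds larger by 25% gave 17, against 50. Leaving out 1 array at a time gave 40 to 180 genes, with the filter on mean signal kept from all 7 arrays. The named values cover 216 comparisons with an alternative. Some could not move, since leaving out a D4PM array cannot change D2PM minus old, nor an old array D4PM minus D2PM. Counting these, 208 kept their direction and moved by less than 1 SD between arrays. Of the rest 7 moved by more, all on leaving out an array, and 1 reversed. Where arrays of a group were far apart this is a wide margin: leaving out 1 array took Mfap5 from 0.90 to 0.30 or 1.5 for D2PM minus old and from -0.82 to -0.43 for D4PM minus D2PM, DQ267102 from 1.02 to 0.62 and from -0.66 to -0.40, and 6330403K07Rik from -1.18 to -0.06 for D4PM minus D2PM. The reversed value was D2PM minus old of 6330403K07Rik, which ranged from -0.34 without old replicate 2 to 4.04 without old replicate 1. The values that moved by more were this one, those of Myl2 (1.70 to 2.60 for D2PM minus old) and those of 2610524H06Rik (0.86 to 1.33 for D2PM minus old and -1.14 to -0.66 for D4PM minus D2PM).

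Members called higher or lower by limma numbered 42 for D2PM against old, and with 1 array left out 9 (without D2PM replicate 1) to 44, with 13 without old replicate 2. For D4PM against D2PM 1 was called, with 0 to 1 when an array was left out, 0 with a filter at the 50th percentile and 2 with a trended and robust variance prior. For D4PM against old 15 were called, with 5 (without old replicate 2) to 14 when an array was left out, 8 without D2PM replicate 1, 8 without D2PM replicate 2 and 9 without D4PM replicate 2. The share of all genes called by limma was not computed for these alternatives. The rule used the same contrasts, so nothing is read from the counts. An ordinary t-test of 2 groups with pooled variance, after Benjamini-Hochberg adjustment, called 0, 0 and 0 members. Over all genes it called 15, 0 and 14. At an unadjusted p under 0.05 it gave 21, 18 and 11 of 50 members, against 2028, 692 and 2747 of 9944 genes.

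With the replicate block, the pairing of arrays by number, 49, 4 and 16 members were called. The share of all genes called with the block was not computed either, so nothing is read from these counts. Deviations of arrays that share a number had correlations of -0.08 to 0.05. In a group of 2 arrays the 2 deviations mirror each other, so these values cannot settle whether the numbers pair the arrays.

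A second quantile normalisation left 38 genes, median centring of the arrays 47, of which 44 were members, no filter 56, the 50th percentile filter 37 and averaging the probe sets of each gene 50. With 2 or 3 arrays a group and 4 residual degrees of freedom, differences near the thresholds are not resolved from the spread between arrays. Where leaving out an array left 1 old or D2PM array, it was assumed to vary like the other groups.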
